A study of Mus with 15 samples.

Results

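The genes described here are 9 genes for subunits of neuronal nicotinic acetylcholine receptors (Chrna2, Chrna3, Chrna4, Chrna5, Chrna6, Chrna7, Chrnb2, Chrnb3 and Chrnb4) and Chat, the gene for choline acetyltransferase. They were chosen by name and function, with earlier results of these data known, and they make up 10 of the 21887 protein-coding genes, or of 49943 genes in all, to which peaks were assigned. A peak was assigned to a gene when it touched the gene body or the 5 kb on either side in the mouse mm10 genome. The measurement was H2Aub, the monoubiquitinated form of histone H2A written H2AK119ub, profiled by ChIPmentation (a form of ChIP-seq where a transposase adds the adapters to chromatin still bound to the antibody beads). The study asked whether cocaine changed where this mark lies in the thalamus, and whether that depended on Maged1.

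Nicotinic receptors are ion channels built from subunits and opened by acetylcholine or nicotine. The alpha4 and beta2 subunits form the commonest heteromeric receptor of the brain and are abundant in the thalamus, alpha7 forms receptors on its own, and alpha3, alpha5 and beta4 are best known from the medial habenula, which lies against the thalamus, and from autonomic ganglia. Choline acetyltransferase makes acetylcholine in cholinergic neurons. H2Aub is placed by the Polycomb repressive complex PRC1, is removed by deubiquitinases, and is typically found over genes that are silent in the cell type examined, among them many genes of other neuronal types.

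Whole thalami of mice aged 2 to 4 months were used, and each library pooled 3 to 4 thalami. WT mice, whose genotype was entered as Maged1 Loxp, carried the floxed allele and kept Maged1. In cKO mice Maged1 was deleted by Cre under the vGluT2 promoter, so that the deletion concerned Vglut2 glutamatergic neurons. Every mouse received saline for 3 days and then, for 5 days, either cocaine at 20 mg/kg intraperitoneally or saline. The 11 H2Aub libraries were independent pools, 3 each of cocaine and saline for WT and 2 of cocaine and 3 of saline for cKO, and 4 libraries of input chromatin were not analysed here. Because whole tissue was used, fewer cells carrying the mark and less mark per cell cannot be told apart.

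Each library was used as a list of peaks, without reads, so its sequencing depth is not known here beyond the lower bound the study gives for all samples. The cKO cocaine replicate 1 and cKO saline replicate 1 lists stood apart, with 54653 and 80713 peaks against 7271 to 26055 in the other 9, and with highest fold enrichments over input of 31.2 and 52.6 against 5.98 to 12.2. They had a peak at 50.4% and 58.9% of coding genes, against 12.6% to 27.8% in the other 9 lists, and at 9 of the 10 genes described here, against 4 to 6. Differences between groups in bases under peaks are therefore given with and without these lists. Values per Mb and the alternative settings include them unless stated. A q value above 0.05 was found for 9.82% to 32.9% of peaks, depending on the library. The labelled tissue was looked at through genes used by its cells. All 6 thalamic marker genes (Slc17a6, Tcf7l2, Lef1, Rora, Prkcd and Prox1) had a peak in at least 6 of the 11 libraries, as did 4 of 6 habenular marker genes (Pou4f1, Tac2, Slc5a7 and Irx2) and 21.2% of coding genes. In at least 6 of the 9 lists other than those that stood apart, the counts were 4 of 6 and 2 of 6, against 15.6% of coding genes. These counts do not allow for gene length. With 5 kb on each side, Rora, Tcf7l2 and Lef1 spanned 744.8, 201.9 and 124.1 kb. Among coding genes over 100 kb, 34.5%, 23.8% and 11.9% had a peak in at least as many of the 9 lists. For Slc17a6, Prkcd and Prox1 the share in their length class was 15.2%, 16.8% and 18.8%. Since peaks do not measure expression, neither list tells which cells were present.

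The 10 genes fell into a marked and a nearly unmarked set. Chrna5, Chrnb4 and Chat had a peak in all 11 libraries, Chrna3 in 9 and Chrna4 in 8. Chrna2 and Chrnb2 had one in 3 libraries, Chrna7 and Chrnb3 in 2, and Chrna6 in none. Among the 9 libraries without the cKO replicates 1, a peak in all 9 was found at 6.78% of coding genes and no peak at 60.2%. In these 9 libraries Chrna5, Chrnb4 and Chat had a peak in all, Chrna3 in 7, Chrna4 in 6, and Chrna2 and Chrnb2 in 1 each. Window length differed between the genes, from 20.7 kb for Chrna6 to 123.8 kb for Chrna7. Among coding genes with windows over 100 kb, 11.9% had a peak in all 9 libraries and 37.4% in none, against 5.93% and 68.3% of those under 25 kb. For the class of 25 to 50 kb, which holds Chrna5, Chrna3, Chrnb4 and Chrna4 as well as Chrna2 and Chrnb3, the values were 5.44% and 60.7%.

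**Figure D1:**
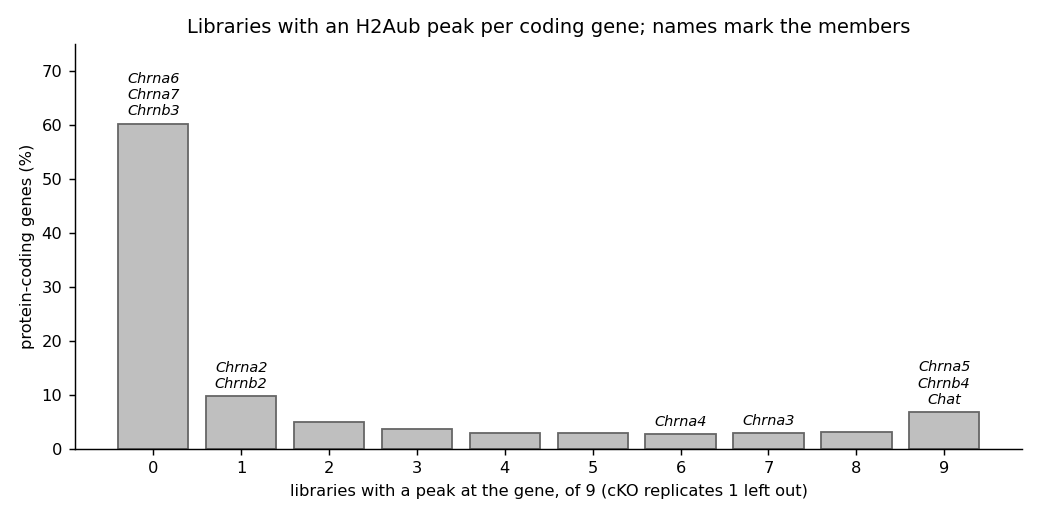
Percentage of protein-coding genes (vertical axis) by the number of libraries with a peak at the gene (horizontal axis), with the cKO replicates 1 left out, with the 10 genes named above their bar. Chrna5, Chrnb4 and Chat sit in the bar at 9 libraries, which holds 6.78% of coding genes, and Chrna6, Chrna7 and Chrnb3 in the bar at 0.

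Read per kb of window, to compare genes of unlike length, the mean covered length (bases under peaks) over these 9 libraries was 71.7 bp per kb for Chrnb4, 47.4 for Chat, 46.2 for Chrna3, 40.3 for Chrna5 and 14.1 for Chrna4. Equal or higher values were held by 3.63%, 5.20%, 5.31%, 5.92% and 11.3% of coding genes, respectively. The Chrnb4 value counts bases that lie also in the Chrna3 window, 1023 to 2480 bp in WT cocaine and 1102 to 2078 bp in WT saline. Its place above the other genes is thus not independent of Chrna3. Chrnb2 followed at 3.22 bp per kb and Chrna2 at 0.898. The median over all coding genes was 0. Peaks of the 10 genes were modest in height, since the 99 gene-assigned peaks in the 9 libraries had fold enrichments of 2.89 to 5.44 (median 3.56) and widths of 99 to 4194 bp (median 443).

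**Figure D2:**
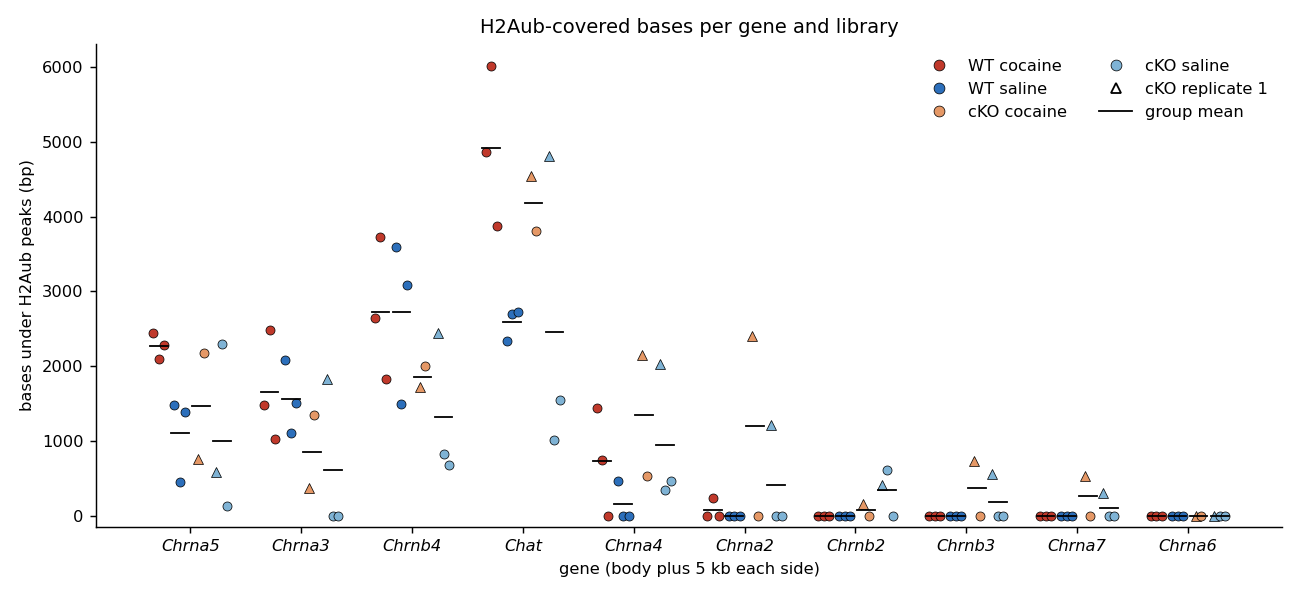
Bases under H2Aub peaks (bp, vertical axis) for each of the 10 genes with 5 kb on each side, with 1 point per library, colour for the group, triangles for the cKO replicates 1 and a bar for the group mean. The WT cocaine points of Chrna5 and Chat lie above all WT saline points, the cKO points spread widely, and Chrna2, Chrnb3 and Chrna7 are high in the triangles only.

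The genes for alpha5, alpha3 and beta4 lie side by side on chromosome 9 within 68.1 kb (chr9:54980827-55048953). The annotated bodies of Chrna5 (chr9:54980827-55011420) and Chrna3 (chr9:55010117-55026562) overlap by 1304 bp, and 1591 bp separate Chrna3 from Chrnb4 (chr9:55028154-55048953). The mark took up separate places in this cluster. For Chrna5, whose subunit joins other subunits as an accessory, 98.9% of covered bases lay within 2.5 kb of its lower-coordinate end, outside the stretch shared with Chrna3, although that zone is 12.3% of its window. For Chrna3, which supplies an acetylcholine-binding subunit, 95.1% lay within 2.5 kb of its higher-coordinate end. That end lies in the flank of Chrnb4, the gene for the partner beta4 subunit, so the same peaks count for both genes. A stretch of 224 bp in Chrna5 starting 1551 bp inside its lower end (chr9:54982378-54982601) was under a peak in 8 of 11 libraries, and one of 214 bp near the end of Chrna3 (chr9:55026089-55026302) in 7.

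**Figure D3:**
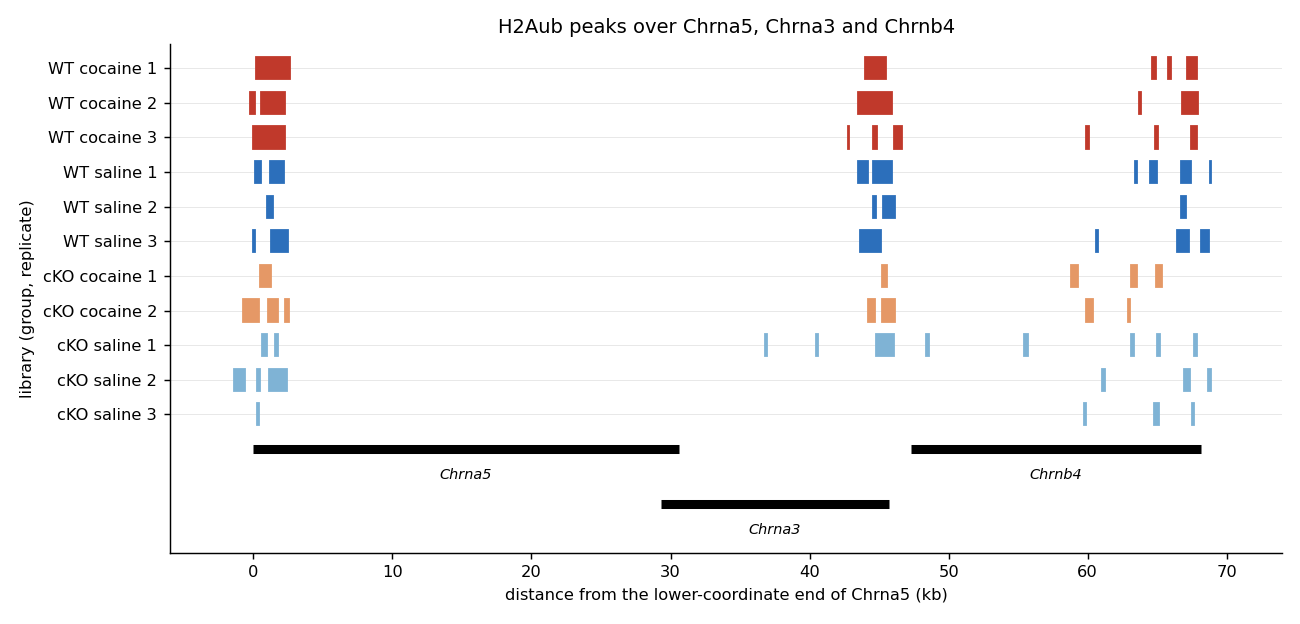
Peaks of each library (coloured by group) along the Chrna5, Chrna3 and Chrnb4 genes (black bars), by distance in kb from the lower-coordinate end of Chrna5. Peaks gather at that end, around the border of Chrna3 and Chrnb4 and in the far part of Chrnb4, and the cKO saline replicates 2 and 3 have none at the border.

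Covered length at Chrna5 was 2445, 2089 and 2278 bp in the WT cocaine libraries (replicates 1 to 3) and 1481, 447 and 1384 bp in the WT saline libraries. In the cKO it was 763 and 2170 bp after cocaine and 578, 2295 and 130 bp after saline. The WT groups did not overlap, whereas each cKO group held both low and high libraries. Bases near the end of Chrna5 were in 1 wide peak in WT cocaine replicates 1 and 3, and the widest peak was 2445, 1730 and 2278 bp after cocaine against 1038, 447 and 1213 bp after saline. Over all genes with a peak in the WT libraries, the widest peak was wider in every cocaine library at 13.3% and narrower at 0.364%.

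At Chrna3 the covered length after cocaine was 1475, 2480 and 1023 bp in WT, and after saline it was 2078, 1102 and 1507 bp. The cKO cocaine libraries had 365 and 1341 bp, and the cKO saline libraries 1823, 0 and 0 bp. The WT groups overlapped, and the only cKO saline library with a peak was replicate 1, one of the 2 lists that stood apart. Without those lists, every WT library had a Chrna3 peak and both cKO saline libraries had none.

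At Chrnb4 the covered length in WT was 2638, 3724 and 1829 bp after cocaine and 3598, 1495 and 3091 bp after saline. In cKO it was 1723 and 1997 bp after cocaine and 2439, 823 and 678 bp after saline. All groups overlapped with their comparison groups. Bases lying also in the Chrna3 window made up 1023 to 2480 bp of these values in WT libraries. With those bases left out, Chrnb4 kept 806 to 1244 bp in WT cocaine, 393 to 1584 bp in WT saline, 656 to 1358 bp in cKO cocaine and 678 to 897 bp in cKO saline, so that most of the distance between WT and cKO saline at Chrnb4 lay in the part shared with Chrna3.

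Chat (chr14:32408203-32465909) holds within its body the gene Slc18a3 (chr14:32462437-32464850), which encodes the vesicular acetylcholine transporter that loads acetylcholine into synaptic vesicles. This arrangement is known as the cholinergic gene locus. Of the covered bases assigned to Chat, 78.4% to 100% per library lay in the part from 5 kb below Slc18a3 to the upper end of the Chat window. A stretch of 204 bp inside Slc18a3 (chr14:32464141-32464344) was under a peak in 10 of the 11 libraries, the most shared place among the 10 genes. The peaks of the 2 genes were thus largely the same and cannot be assigned to one of them.

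**Figure D4:**
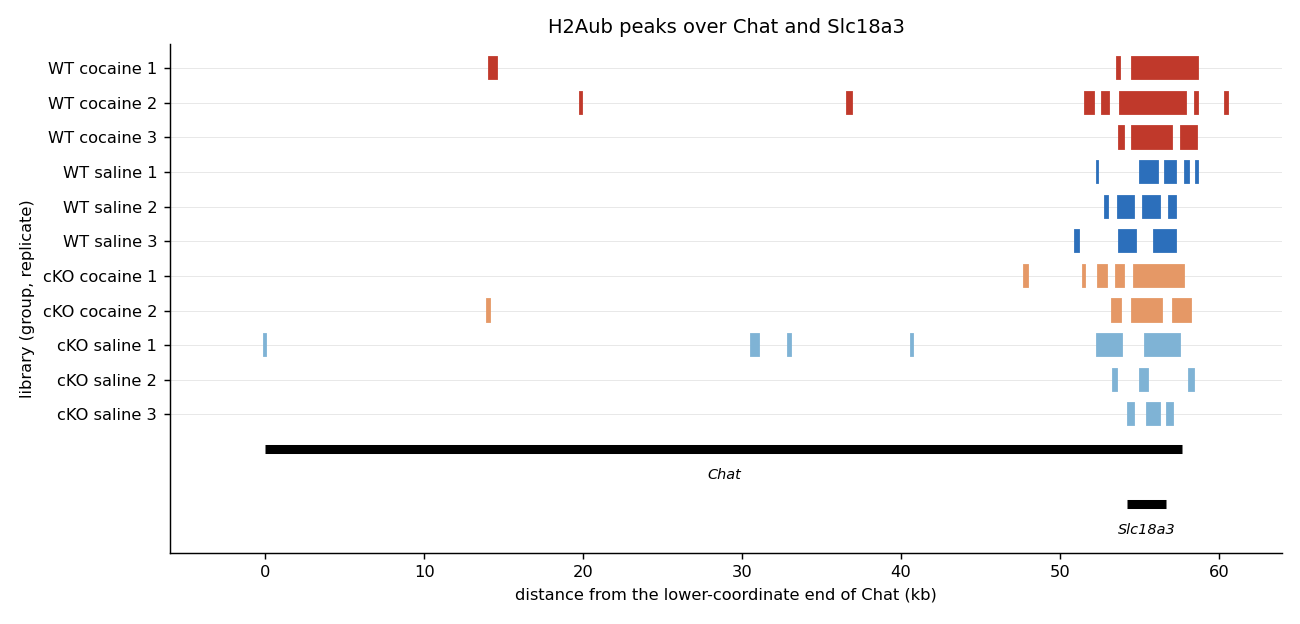
Peaks of each library (coloured by group) along Chat and Slc18a3 (black bars), by distance in kb from the lower-coordinate end of Chat. Peaks of all 11 libraries gather around Slc18a3, as blocks of up to 4194 bp in WT cocaine and as several shorter pieces in WT saline.

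Covered length at Chat was 4865, 6009 and 3870 bp in WT cocaine against 2335, 2700 and 2717 bp in WT saline, with no overlap. The cKO cocaine libraries had 4549 and 3813 bp and the cKO saline libraries 4809, 1014 and 1551 bp, the first of which was replicate 1. The widest peak in WT measured 4194, 4160 and 2527 bp after cocaine and 1121, 1090 and 1350 bp after saline. The number of peaks did not separate these groups (3, 7 and 3 against 5, 4 and 3), so the longer cover of the WT cocaine libraries came with wider peaks. A wider widest peak in every WT cocaine library was not particular to Chat, being found at 13.3% of the 15123 genes with a peak in these libraries. Of the Slc18a3 body, 87.7% to 100% was covered in WT cocaine and 47.3% to 61.6% in WT saline. In the cKO the cover was 79.2% to 81.2% after cocaine and 20.3% to 53.7% after saline. The bases of the Chat window outside Slc18a3 also kept the WT groups apart, at 1753 to 3595 bp against 1194 to 1424 bp.

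Chrna4 (chr2:181022311-181043579), the gene for the main alpha subunit of the brain, carried small peaks inside its body, with 98.1% of covered bases between its ends. Covered length in WT was 1436, 738 and 0 bp after cocaine and 462, 0 and 0 bp after saline. In cKO it was 2148 and 534 bp after cocaine and 2030, 343 and 466 bp after saline. All 5 cKO libraries had a peak, against 3 of 6 WT libraries, and the 2 highest values were from the lists that stood apart. No base was under a peak in more than 4 of the 11 libraries, the shared stretch of 221 bp lying 3819 bp from the upper end (chr2:181039540-181039760). Lowest q values in the 9 other libraries were 0.00911 to 0.064.

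The other 5 genes were close to unmarked. Chrnb2 (chr3:89753448-89764632), for the beta subunit that pairs with alpha4, had a peak of 613 bp in cKO saline replicate 2 and 155 and 415 bp of cover in the cKO cocaine and saline replicates 1. Chrna2 (chr14:66133236-66152948) had 240 bp in WT cocaine replicate 2, and 2400 and 1215 bp in those 2 lists. Chrnb3 and Chrna6, neighbours 3481 bp apart on chromosome 8 whose subunits meet in receptors of dopaminergic and visual neurons, had 731 and 560 bp in those lists (Chrnb3) and no peak (Chrna6). Chrna7 (chr7:63098692-63212526) had 536 and 302 bp there and none elsewhere.

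At Chrna7 and Chrna2 the 2 lists that stood apart shared some narrow and high peaks. At Chrna7 both lists had a peak 106 kb into the gene, 180 and 163 bp wide (chr7:63204756-63204935 and chr7:63204764-63204926), with fold enrichments of 13.7 and 11.8. At Chrna2 both had a narrow peak about 4.9 kb into the gene (chr14:66138112-66138309 and chr14:66138139-66138306), with fold enrichments of 15.8 and 7.26. No other library had a peak at either place, and the highest fold at any of the 10 genes in the other 9 libraries was 5.44. The remaining Chrna2 peaks of the 2 lists had fold enrichments of 2.85 to 5.59 and were up to 948 bp wide. What sets these lists apart was not tested.

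WT cocaine and WT saline libraries were compared first. Of the 6 genes with a peak in any of these libraries, Chrna5 and Chat were higher in every cocaine library than in every saline library, and 0 were lower. Over all 15123 genes with a peak in these libraries, 13.1% were higher and 0.291% lower in this sense. Mean cover at Chat was 4915 ± 1070 bp after cocaine and 2584 ± 216 bp after saline (SD, n = 3 each), 1.90 times as much, a difference of 2331 ± 630 bp (SE; two-sided exact permutation test, p = 0.10). At Chrna5 the means were 2271 ± 178 and 1104 ± 571 bp, 2.06 times as much (difference 1167 ± 345 bp, exact permutation p = 0.10). With 3 libraries against 3 the smallest p possible is 0.10, and the Benjamini-Hochberg adjusted p over these 15123 genes was 0.744 for both. Chrna3 (difference 97 ± 515 bp, exact permutation p = 1) and Chrnb4 (2.33 ± 838 bp, exact permutation p = 1) differed by far less than the spread between libraries. Chrna4 had means of 725 ± 718 and 154 ± 267 bp (SD, n = 3 each), with overlapping groups (exact permutation p = 0.40).

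Both calls were lost when cover was scaled to the length of the lists, and Chat was called in 15 and Chrna5 in 14 of 16 alternatives. The WT cocaine lists covered 10.4 to 17.2 Mb in all and the WT saline lists 5.55 to 11.1 Mb. Expressed per Mb under all peaks of the same library, Chat had 352 ± 62.0 bp after cocaine and 340 ± 139 bp after saline, and Chrna5 167 ± 45.7 and 126 ± 42.5 bp (SD, n = 3 each), and in both cases the groups overlapped. On this scale it was Chrna3 and Chrnb4 that did not overlap, both lower after cocaine, at 117 ± 42.8 against 188 ± 9.73 bp per Mb and 193 ± 49.6 against 320 ± 49.2 bp per Mb (n = 3 each, exact permutation p = 0.10 for each), although the 2 genes share peaks. Of the 15123 genes with a peak in these libraries, 6.78% were then higher and 2.35% lower. With the same number of peaks kept in each library (the 7271 of lowest q) Chat and Chrna5 were again higher in every cocaine library, against 9.82% of the 9821 genes with such a peak higher and 0.977% lower. A change at these genes and a change in the total length under peaks cannot be told apart.

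**Figure D5:**
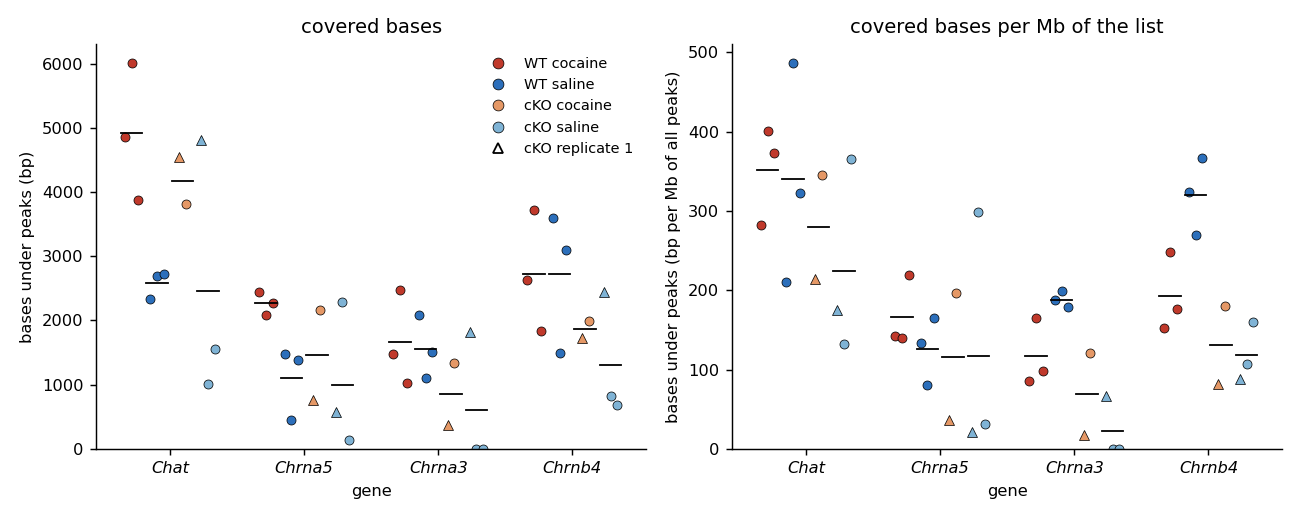
Bases under peaks at Chat, Chrna5, Chrna3 and Chrnb4 per library, as measured (left, bp) and per Mb under all peaks of that library (right), with 1 point per library, triangles for the cKO replicates 1 and bars for group means. The WT cocaine and WT saline points of Chat and Chrna5, apart on the left, overlap on the right, where Chrna3 and Chrnb4 are lower in WT cocaine.

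In cKO mice 0 of the 9 genes with a peak were higher and 0 lower in every cocaine library than in every saline library, against 3.87% and 0.118% of 27076 genes. Mean cover at Chat was 4181 ± 520 bp after cocaine (SD, n = 2) and 2458 ± 2054 bp after saline (SD, n = 3), and the difference of 1723 ± 1241 bp (SE) had an exact permutation p of 0.40. Chrna5 had 1466 ± 995 and 1001 ± 1143 bp (n = 2 and 3, exact permutation p = 0.60). Without the replicates 1 of both groups, Chrna3, Chrna4, Chrnb4 and Chat were higher in the only cocaine library left (1341, 534, 1997 and 3813 bp) than in both saline libraries. In that setting, with 1 library on one side, 64.9% of all genes with a peak were higher and 3.03% lower.

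The difference of the cocaine effect between genotypes was tested directly, with the treatments of each genotype reassigned in all 200 possible ways, where the smallest possible p is 0.005. For Chat the effect was 2331 bp in WT and 1723 bp in cKO, and the difference of 608 bp had p = 0.77 (two-sided exact permutation). Chrna5 had effects of 1167 and 465.5 bp (exact permutation p = 0.52). Its effect in cKO rested on single libraries, since it was 1169 bp without cKO cocaine replicate 1, -238 bp without cKO cocaine replicate 2, 1112 bp without cKO saline replicate 2 and 30 bp without cKO saline replicate 3. The lowest p of the 10 genes with all libraries was 0.40, at Chrnb2. Without the replicates 1 of both cKO groups, which leaves 1 cKO cocaine library, the effect in cKO was 2530 bp at Chat and 957.5 bp at Chrna5. With single libraries left out, the cocaine effect at Chat in cKO ranged from 1001 bp (without cKO saline replicate 2) to 2898 bp (without cKO saline replicate 1). With equal numbers of peaks per library the effect at Chat was 1726 bp in WT and -471 bp in cKO. This was the only 1 of 16 alternatives in which its direction in cKO turned, and the exact permutation p of the difference was then 0.065. Across 28090 genes 116 (0.413%) had p at or under 0.05 and 0 passed after Benjamini-Hochberg adjustment. Whether the response at Chat and Chrna5 depended on Maged1 was thus not resolved by these libraries.

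Between genotypes after saline, 0 of 9 genes were higher and 0 lower in every cKO library, against 0.627% and 0.600% of 25340 genes. The largest mean difference was at Chrnb4, with 1313 ± 977.5 bp in cKO and 2728 ± 1097 bp in WT (SD, n = 3 each, exact permutation p = 0.20). Chrna3 followed with 608 ± 1053 and 1562 ± 490 bp (n = 3 each, exact permutation p = 0.30). Without cKO saline replicate 1, Chrna3, Chrnb4 and Chat were lower in both cKO libraries than in every WT library, as were 8.60% of all genes with a peak in these libraries. Per Mb under all peaks, with all libraries, Chrna3 (22.1 against 188 bp per Mb) and Chrnb4 (118.6 against 320) were lower and Chrna4 (76.1 against 13.9) higher in every cKO library (exact permutation p = 0.10 for each), against 1.86% of the genes with a peak lower and 0.852% higher on that scale.

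After cocaine, 0 of 9 genes were higher and 0 lower in every cKO library than in every WT library, against 5.88% and 3.21% of 22058 genes. Chrnb4 had 1860 ± 194 bp in cKO (n = 2) and 2730 ± 951 bp in WT (n = 3, exact permutation p = 0.30), and Chat 4181 ± 520 and 4915 ± 1070 bp (n = 2 and 3, exact permutation p = 0.40). At Chrna5 the means were 1466 ± 995 and 2271 ± 178 bp (n = 2 and 3, exact permutation p = 0.20). Its widest peak was narrower in both cKO libraries (763 and 1198 bp) than in every WT library, as was that of 4.06% of genes. Chrna4 had 1341 ± 1141 and 725 ± 718 bp (n = 2 and 3, exact permutation p = 0.50). The difference of largest size was at Chrna2, with 1200 ± 1697 against 80 ± 139 bp (n = 2 and 3, exact permutation p = 0.40), where all cKO bases came from replicate 1. Without cKO cocaine replicate 1, Chat was lower in the remaining cKO library than in every WT library, as were 19.7% of all genes with a peak. The comparisons share groups (each WT and each cKO group enters 2 of them), so they are not independent.

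A gene was called H2Aub+ in a group when at least 2 of its libraries had a peak over a common base at the gene. The study likewise kept peaks shared by replicates, but named genes by peaks at their promoters, whereas here the whole gene body with 5 kb on each side and all peaks of the lists were used. In WT cocaine 5 of the 10 genes were H2Aub+ (Chrna3, Chrna4, Chrna5, Chrnb4 and Chat), against 18.0% of coding genes. In WT saline there were 4, Chrna4 being absent, against 12.9%. The cKO cocaine group again had these 5 genes, against 13.0%, and the cKO saline group had Chrna4, Chrna5, Chrnb4 and Chat, against 11.4%. With all peaks, Chrna3 was H2Aub+ in every group but cKO saline, and Chrna4 in every group but WT saline. Chrna3, Chrna5, Chrnb4 and Chat were H2Aub+ in both WT groups, and Chat in cKO saline, in all alternatives run, while the other calls depended on the setting. Chrna4 was lost in WT cocaine at q at most 0.01, with equal numbers of peaks, at gene ends only, when a peak was asked of every replicate, and without replicate 1 or replicate 2. In cKO cocaine Chat alone remained at q at most 0.01 and 0 genes with equal numbers of peaks. Chrnb4 was lost with the gene body only and when the bases shared with the Chrna3 window were left out, and Chrna4 at gene ends only. In cKO saline Chat alone remained at q at most 0.05, at 0.01 and with equal numbers of peaks, and Chrna5 and Chat at gene ends only, without replicate 1 and likewise without replicate 3. Chrna5 was lost without replicate 2, and Chrnb4 when 100 bp had to be shared. The share of coding genes that were H2Aub+ was not computed in these alternatives, so the losses cannot be set against those of genes in general.

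Other genes of acetylcholine signalling were looked at in the same way, as 26 genes in 4 lists. Of 7 nicotinic subunits of muscle and inner ear, Chrnb1 and Chrnd, parts of the muscle receptor, had a peak in all 11 libraries, with a mean cover of 1154 and 1141 bp over the 9 libraries. The remaining 5 subunits had peaks in 1 to 4 libraries. Some peaks at Chrnb1 ran beyond its window, the widest peak averaging 2498 bp in WT cocaine against 1653 bp of cover. Of coding genes in the length class of Chrnb1 and Chrnd (under 25 kb), 5.93% had a peak in all 9 libraries. Chrm4, a muscarinic receptor that couples to inhibitory G proteins, had a peak in all 11 (mean 1700 bp), and Chrm1 had none in WT saline and 1254 ± 658 bp in WT cocaine (n = 3, exact permutation p = 0.10). Of 7 genes for handling of the transmitter, Slc18a3 and Slc10a4, a transporter-like protein of cholinergic vesicles, had a peak in all 11, Slc5a7, the high-affinity choline transporter, in 7 and Prima1, an anchor of acetylcholinesterase, in 7. Bche had no peak in any library.

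Proteins that chaperone nicotinic receptors or tune them were the most often marked of the 4 lists, with a peak in a median of 6 of the 9 libraries. The median over all coding genes was 0, and the ranking of the lists does not allow for gene length. Lypd1 and Lypd6, Ly6 proteins that bind nicotinic receptors, had a peak in all 11 libraries, Lypd6b in 9, Ly6h in 8 and Lynx1 in 7, while the chaperone genes Ric3 and Tmem35a had none. With 5 kb on each side, Lypd6 and Lypd6b spanned 137.2 and 171.5 kb. Among coding genes over 100 kb, 11.9% and 23.8% had a peak in at least as many of the 9 libraries. The share in the length class was 7.45% for Lypd1 and 11.96% for both Lynx1 and Ly6h. In WT cocaine 5 of these 7 genes were H2Aub+ and in each of the other groups 2, against 18.0% of coding genes in WT cocaine and 11.4% to 13.0% in the others, and the difference between groups was not tested. Lypd1 (2178 ± 296 against 1136 ± 682 bp) and Lypd6b (4127 ± 2721 against 628 ± 884 bp) were higher in every WT cocaine library than in every WT saline library (SD, n = 3 each, exact permutation p = 0.10, adjusted p = 0.744). Of the 26 genes, 20 had a peak in a WT library, and of these Slc18a3, Chrm1, Lypd1 and Lypd6b were higher in every WT cocaine library and 0 lower, against 13.1% and 0.291% of the 15123 genes with a peak. In cKO, Chrnd (1994 ± 404.5 against 1086 ± 656 bp) and Slc5a7 (468 ± 7.07 against 243 ± 46.2 bp) were higher in both cocaine libraries than in every saline library, 2 of 23 genes with a peak, against 3.87%. After cocaine, Chrnd, Slc5a7, Colq, Prima1 and Lypd6 were higher in both cKO libraries than in every WT library, 5 of 21, against 5.88%. Between genotypes after saline 0 of 23 were higher and 0 lower. Without the cKO replicates 1, 9 of the 14 genes with a peak were higher in the cKO cocaine library left than in both cKO saline libraries and 0 lower, against 64.9% and 3.03% of all genes with a peak. After saline, 0 of 14 were then higher and 2 (Slc18a3 and Lypd1) lower in both cKO libraries than in every WT library, against 1.42% and 8.60%. After cocaine the same 5 of 20 genes were higher and 5 (Chrm1, Chrm4, Slc18a3, Lynx1 and Lypd1) lower in the remaining cKO library, against 16.2% and 19.7%.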

How the data were processed

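ChIPmentation libraries of thalamus were processed by the authors with Bowtie2 (version 2.3.4.1) on mm10 and broad peak calling in MACS2 (version 2.1.1.20160309.3) against input chromatin, per library. The deposited lists give coordinates, a score, a fold enrichment ratio over input and −log10 p and q values, and the deposited score is the integer part of 10 times −log10 q in nearly all peaks. The study's methods give a slightly wider range of pooled thalami than the labels. The lists hold no read counts, so no depth per library or counting error could be given.

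Gene bodies were taken from RefSeq (GRCm38.p6, the mm10 assembly), without strand or exons. Peaks were assigned to the body plus 5 kb each side, at an overlap of 1 bp, and bases under peaks were summed per library with Python 3.11.15, numpy 2.4.6 and pandas 2.3.3. A gene was called when every library of one group exceeded every library of the other. Two-sided exact permutation tests of the means had Benjamini-Hochberg adjustment over all genes with a peak. The calculation was tested on simulated data with planted changes, whose spread between libraries was set and not taken from these lists. All 10 genes were named, and pathway genes with a peak in at least 6 of 11 libraries or on which a result turned. Members, lists and tests were chosen with earlier results of these data known. WT replicate numbers did not pair libraries (correlations of deviations -0.0108 to 0.0294).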

Additional observations from a re-analysis of the deposited data

How the results depend on the processing

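Counts of the 10 genes with non-overlapping groups (2, 0, 0 and 0 in WT cocaine vs WT saline, cKO cocaine vs cKO saline, cKO saline vs WT saline and cKO cocaine vs WT cocaine) and of H2Aub+ genes were recomputed, giving 74 counts within 1.5 times the reported one and 37 outside it. In WT, Chat was called in 15 and Chrna5 in 14 of 16 alternatives. List-length scaling called Chrna3 and Chrnb4 (lower) instead of both. A cut at q at most 0.01 ended the call of Chrna5, leaving 1, against 10.8% of 7073 genes higher and 0.226% lower. The WT difference at Chrna5 was then 964 bp, against 1167 bp with all peaks. Leaving out single libraries gave 2 to 3 in WT, 0 to 4 in cKO, 0 to 3 for cKO vs WT after saline and 0 to 8 for cKO vs WT after cocaine. The highest counts came without cKO saline replicate 1 (4 in cKO, 3 after saline) and without cKO cocaine replicate 2 (4 in cKO, 8 after cocaine). The latter leaves replicate 1, a list that stood apart, as the only cKO cocaine library, and 32.2% of genes with a peak were then higher in cKO cocaine than cKO saline and 65.1% higher and 6.36% lower than in WT cocaine. With WT cocaine replicate 3 left out the count was 3 after cocaine. Without the replicates 1 of both cKO groups the counts were 4 in cKO, 3 after saline and 1 after cocaine, and H2Aub+ in cKO saline fell to 2 (2 to 3 over single libraries left out). With 1 library left, H2Aub+ in cKO cocaine could not be computed.

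In cKO, q at most 0.01 gave 1 (Chrna5 higher, as 1.74% of genes). After saline, equal numbers of peaks gave 1 (Chrna3 lower, as 4.38% of genes), list-length scaling 3 (0.852% higher, 1.86% lower) and the widest peak 1 (Chrna4 higher, as 0.789%). After cocaine, equal numbers of peaks gave 1 (Chat lower, as 10.1%), gene bodies 1 (Chrna5 lower, as 3.40%), gene ends 2 (Chrnb4 and Chat lower, as 4.25%) and the widest peak 1 (Chrna5 lower, as 4.06%). H2Aub+ in cKO cocaine was 1 at q at most 0.01 and 0 with equal numbers of peaks. In cKO saline it was 1 at q at most 0.05, 1 at 0.01, 1 with equal numbers and 2 at gene ends. With the share of H2Aub+ coding genes computed in the main setting only, lower counts cannot be told from a lower share of all genes. The cause of these moves was not tested. For the difference of the cocaine effect between genotypes, 0 of the 10 genes passed adjustment in any alternative, and the lowest p were 0.05 (Chrna3, scaled) and 0.065 (Chat, equal numbers of peaks).

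Deviations of same-numbered libraries correlated at 0.187 and 0.21 in cKO, where both replicates 1 stood apart, and at -0.0893 to 0.0336 in the other comparisons, so the numbers were not taken as pairs. With the replicate number as a block (same sign in every pair), the counts were 2 in WT (the same genes, exact sign-flip p = 0.25, the smallest possible), 2 in cKO (Chrna4 higher, Chrnb2 lower), 3 after saline (Chrna4 higher, Chrna3 and Chrnb4 lower) and 3 after cocaine (Chrna3, Chrnb4 and Chat lower). Of all genes with a peak, 21.8% were higher and 0.681% lower in every pair in WT, 10.0% and 5.30% in cKO, 2.12% and 1.56% after saline, and 8.92% and 11.9% after cocaine. The windows without Slc18a3 and without the Chrna3 flank were added after seeing the data. They changed no count of non-overlapping genes, but the difference between cocaine and saline at Chat was 1416 bp in WT and 780.5 bp in cKO (2331 and 1723 bp with Slc18a3), that at Chrnb4 in WT was -94.67 bp (2.33 bp with the shared bases), and they took Chrnb4 off the H2Aub+ genes of cKO cocaine, leaving 4.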
